A study of Mus musculus with 6 samples.

Results

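The regions described here were strong, narrow H3K27me3 peaks that were called in control granulosa cells (GCs) and had no counterpart after treatment with dihydrotestosterone (DHT). Members were chosen by the values of the peak caller in both lists: a member was a control peak on chromosomes 1 to 19 with a −log10 q of at least 3 (a q-value of 0.001 or less), a width of at most 1000 bp and no overlap of 1 bp or more with any DHT peak. The rule was met by 1148 of the 16345 control peaks, or 7.02% (95% Wilson interval 6.64 to 7.43%). These peaks are called control-only below.

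Primary GCs were taken from ovaries of wild type C57BL/6J mice aged 8 to 9 weeks. They were cultured either with no agent (control, 3 samples) or with 25 nM DHT for 24 h (3 samples), and H3K27me3 was mapped in all 6 by chromatin immunoprecipitation and sequencing (ChIP-seq). Per the labels, cells of 30 mice were pooled and spread over 6 dishes, while the methods of the study give another number of mice, so the samples are dishes of pooled cells and not single animals. The files used here hold 1 peak list per group. No peak carries a value per sample and sequencing depth is unknown, so replicate error could not be estimated for control against DHT. The peak lists also give no means to check the labelled cell type against its markers.

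H3K27me3 is trimethylation of lysine 27 on histone H3. The mark is laid down by Polycomb repressive complex 2 through its enzyme EZH2 and removed by the demethylases UTX and JMJD3 (the product of Kdm6b). It is associated with silent genes, and in differentiated cells it often forms broad domains over developmental regulators as well as short islands of signal. GCs surround the oocyte, respond to follicle stimulating hormone and convert androgen to estrogen with aromatase. DHT acts through the androgen receptor and cannot be aromatized.

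The steps of the rule reduced the control list as follows. Of the 16345 control peaks, 15203 were on chromosomes 1 to 19, and 1363 of these had a −log10 q of at least 3. The width limit removed 66 peaks and left 1297. Of these strong narrow control peaks, 149 overlapped a DHT peak and 1148 did not, which is 88.5% without a DHT peak (95% interval 86.7 to 90.1%). Among all control peaks on these chromosomes the share was 95.8%. Because absence of a DHT peak is part of the rule, this share describes the members and was not tested. Absence means that the caller reported no DHT peak, since signal below the calling limit is not part of the lists.

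The DHT list was shorter, with 3975 peaks, 3787 of them on chromosomes 1 to 19. The same rule with the lists exchanged gave 731 strong narrow DHT peaks without a control peak, out of 948. The share was 77.1% (95% interval 74.3 to 79.7%), beside 83.1% of all DHT peaks on these chromosomes. Strong narrow peaks called in 1 list only were thus found on both sides, and the DHT-only peaks numbered 63.7% of the control-only peaks. This ratio belongs to the limit on strength, since over all peaks on these chromosomes 3147 DHT-only peaks stood beside 14562 control-only peaks, or 21.6%. Fold enrichment, the ratio of signal to local background as the caller gives it, had a median of 4.49 in the control-only peaks and 5.05 in the DHT-only peaks. The caller scales each list to its own background. The median width was 287 bp in both sets.

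The members formed a compact group in strength. Their fold enrichment had quartiles of 4.35 and 4.73 around the median of 4.49, and 1133 of them reached a fold of 4. A fold of at least 5 was reached by 139 members and a fold of at least 6 by 1. The −log10 q had a median of 3.43 and quartiles of 3.15 and 3.88, so most members lay close to the limit that selected them. In numbers, 912 of the 1148 members had a −log10 q under 4, 60 had 5 or more and 11 had 6 or more. Fold rose with −log10 q among the members, from a median of 4.37 at a −log10 q of 3 to 3.5 to 5.80 at 6 to 7.5. Both values come from the same signal, so this is no separate evidence of strength.

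**Figure D1:**
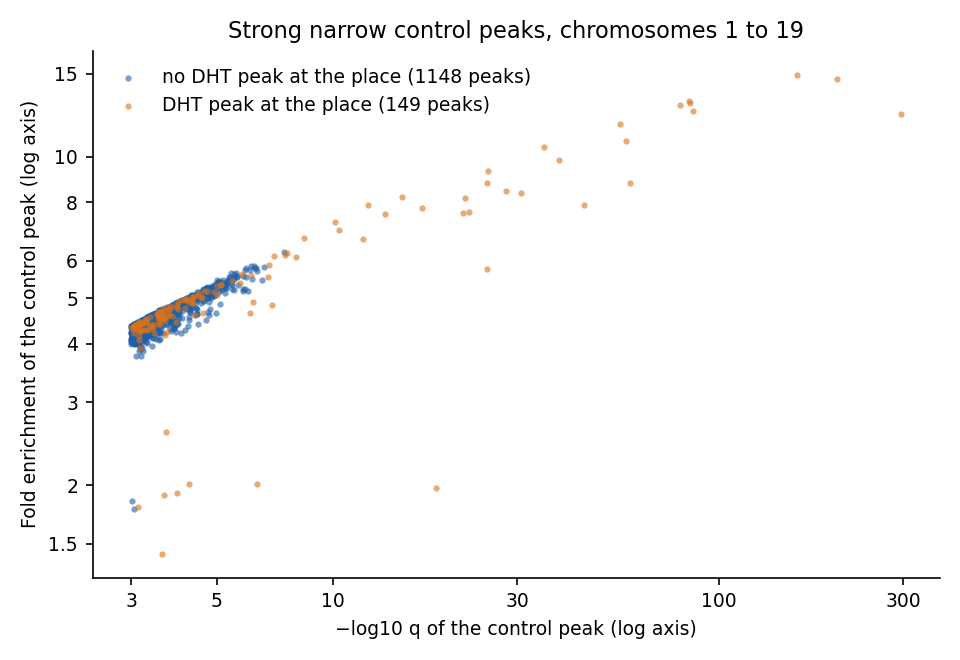
Fold enrichment against −log10 q, both on log axes, for the 1297 strong narrow control peaks on chromosomes 1 to 19, with 1 point per peak. The 1148 peaks without a DHT peak (blue) end at a −log10 q of 7.48, and the 149 peaks with a DHT peak (orange) reach 296.2. The 10 points below a fold of 3 include 2 without a DHT peak.

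The strongest member was chr3:152364422-152364713 in mm9, 292 bp wide, with a fold of 6.27 and a −log10 q of 7.48. It was also the member with the highest fold. The nearest DHT peak lay 73.4 kb away and the nearest other control peak 283 kb away. Next in rank were chr2:138975271-138975682 (−log10 q 6.62, 5.83-fold) and chr10:125026810-125027104 (6.53, 5.46-fold). The latter had another control peak 3.33 kb away and a DHT peak 3.50 kb away.

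The other 7 of the 10 strongest members had −log10 q values between 6.09 and 6.37. They were chr6:48071123-48071570 (5.70-fold), chr2:16786475-16786787 (5.80-fold), chr16:49296159-49296473 (5.80-fold), chr17:80883360-80883662 (5.86-fold), chr8:37890599-37890957 (5.49-fold), chr12:55549697-55550031 (5.84-fold) and chr5:90418758-90419131 (5.73-fold). Their distances to a DHT peak differed widely. The members on chromosomes 16 and 17 had one at 19.5 and 21.2 kb, and for the member on chromosome 12 the nearest was at 1089 kb. None of these 10 regions was wider than 448 bp. Genes at these places are not named, because gene annotation in mm9 was not used here.

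The share of strong narrow control peaks without a DHT peak differed with strength. It was 94.0% at a −log10 q of 3 to 3.5 (631 of 671 peaks, 95% interval 91.98 to 95.6%), 88.1% at 3.5 to 4 (281 of 319 peaks, 84.1 to 91.2%) and 88.0% at 4 to 5 (176 of 200 peaks). It was 89.1% at 5 to 6 (49 of 55 peaks, 95% interval 78.2 to 94.9%) and 21.2% at 6 or more (11 of 52 peaks, 95% interval 12.2 to 34.0%). This last band joined 57.9% at 6 to 7.5 (11 of 19 peaks, 95% interval 36.3 to 76.9%) with 0 of 33 peaks at 7.5 or more. The share was thus highest in the weakest band, with overlapping intervals from 3.5 to 6, and lowest in the strongest band. Among the control peaks wider than 1000 bp, which the rule leaves out, 19 had a −log10 q above that of the strongest member, and all 19 overlapped a DHT peak.

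Width separated the sets as well. The share without a DHT peak was 97.2% among control peaks of 261 bp (243 of 250 peaks, 95% interval 94.3 to 98.6%), 89.6% at 301 to 400 bp and 48.0% at 701 to 1000 bp (24 of 50 peaks, 95% interval 34.8 to 61.5%). This order was also seen within bands of strength. At a −log10 q of 3 to 4 the share was 96.2% up to 300 bp and 68.7% over 500 bp. At 4 or more it was 94.5% and 26.5% (13 of 49 peaks, 95% interval 16.2 to 40.3%). Over all widths, the band of 4 or more includes 33 peaks at 7.5 or more, none of them a member. Between 4 and 7.5 the share was 95.4% up to 300 bp and 54.2% over 500 bp (13 of 24 peaks, 95% interval 35.1 to 72.1%). The median width was 287 bp in the members and 432 bp in the 149 peaks with a DHT peak. A wider peak also offers more bases to touch, and the part this plays was not tested.

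**Figure D2:**
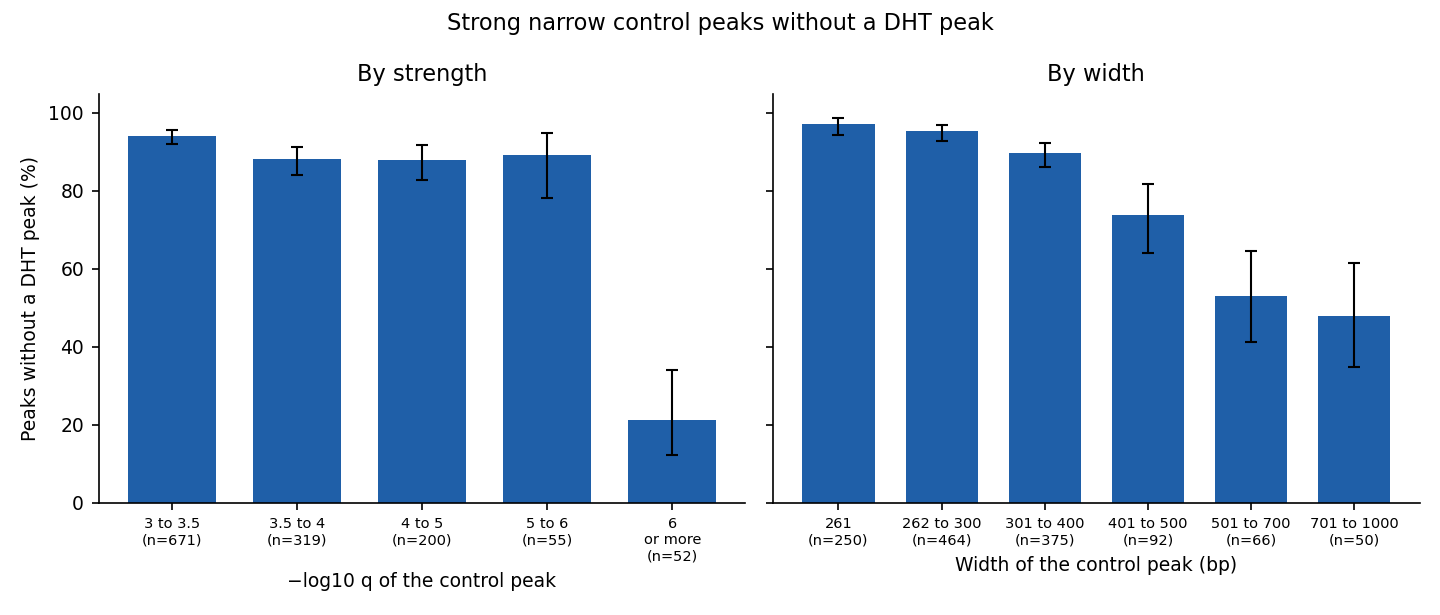
Share of strong narrow control peaks without a DHT peak (%), by −log10 q (left) and by width in bp (right), with n under each bar and error bars for 95% Wilson intervals. The share is 94.0% at a −log10 q of 3 to 3.5 and 21.2% at 6 or more, and it is 97.2% at 261 bp and 48.0% at 701 to 1000 bp. The bar at 6 or more joins 11 of 19 peaks at 6 to 7.5 with 0 of 33 at 7.5 or more.

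A width of 261 bp was the shortest in the control list, and 243 members had it (21.2%, 95% interval 18.9 to 23.6%). A further 778 members (67.8%) were 262 to 400 bp wide, and 59 (5.14%) exceeded 500 bp. In the peaks with a DHT counterpart, 7 of 149 (4.70%) had the shortest width and 57 (38.3%) exceeded 500 bp. Of the narrow control-only peaks below the limit on q, 11134 in number, 27.4% had the shortest width and 36.1% exceeded 500 bp. They were set apart from the members by q, which is averaged over the peak. The part this plays in their widths was not tested. Short peaks were also common among the 731 strong narrow DHT-only peaks. There, 294 (40.2%) had the shortest width of the DHT list, 275 bp, and 23 (3.15%) exceeded 500 bp. Members of 261 bp had a median fold of 4.39, and the 24 members of 701 to 1000 bp had 4.36. In the widths between, the medians ran from 4.45 to 4.55. Fold is averaged over the peak, so these medians do not compare strength between widths. The widest were chr2:85156733-85157722 (990 bp, 4.50-fold), chr16:63966647-63967633 (987 bp, 4.44-fold) and chr9:77415203-77416163 (961 bp, 4.48-fold).

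Values on either side of the limits were close. Just inside the limit on q were chr11:90425526-90425786 and chr15:30248785-30249045, both with a −log10 q of 3.001, and chr4:56149977-56150249 with 3.004. Just outside were chr5:15750824-15751084 and chr10:120343948-120344209, both with 2.997, and chr8:82087436-82087731 with 2.995. Above the width limit, 23 strong control peaks had no DHT peak, the shortest being chr14:11504875-11505901 (1027 bp), chr1:28137987-28139016 (1030 bp) and chr13:64520301-64521351 (1051 bp). At the limit on overlap, the strong narrow control peaks that touched a DHT peak least were chr1:39205157-39205420 (9 bases shared), chr5:119360752-119361133 (45 bases) and chr19:53500829-53501094 (70 bases). On the other side, the member chr18:65362489-65362762 ended exactly where a DHT peak began, with 0 bases between them.

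The place of the members in both lists was then compared. The median −log10 p of the members, 7.08, was higher than that of 95.2% of control peaks and 81.4% of DHT peaks on the same chromosomes. Their median fold of 4.49 was higher than 95.4% of control peaks and 65.4% of DHT peaks. The lowest −log10 p that was called was 3.57 in control and 4.03 after DHT. Members were thus in the upper tail of the control list by construction, at values that a larger part of the DHT list exceeded.

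To ask whether DHT peaks lay beside the members, the bases between each member and the nearest DHT peak were counted. The median was 197 kb (95% interval of the median 175 to 219 kb), with quartiles of 78.8 and 413 kb. A DHT peak lay within 1 kb of 8 members, within 10 kb of 52 and within 100 kb of 350. Within 10 kb this is 4.53% of members (95% interval 3.47 to 5.89%), beside 3.36% of all control-only peaks. For narrow control-only peaks below the limit on q it was 3.23% (95% interval 2.92 to 3.58%) and the median distance was 216 kb. The intervals of the shares overlap, and the difference was not tested. The DHT-only peaks had a control peak at a median of 64.03 kb, and here the other list was the longer one.

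**Figure D3:**
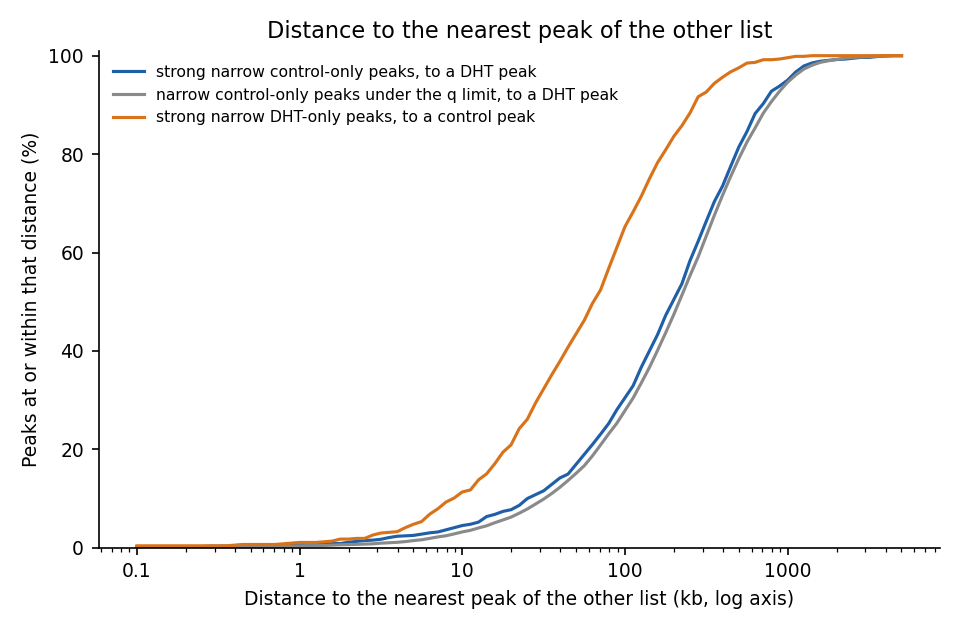
Share of peaks (%) that have a peak of the other list at or within a given distance (kb, log axis). The curves of the 1148 strong narrow control-only peaks (blue) and of the 11134 narrow control-only peaks below the limit on q (grey) run close together, with medians of 197 and 216 kb, and the 731 strong narrow DHT-only peaks (orange) lie nearer to a control peak, with a median of 64.03 kb.

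In strength, the DHT peaks near members were close to the DHT list as a whole. Each of the 52 members had its own DHT neighbour within 10 kb. Of these neighbours, 11 reached a −log10 q of 3 (21.2%, 95% interval 12.2 to 34.0%), beside 25.8% of all DHT peaks on these chromosomes. Their median −log10 q was 2.28, beside 2.32 for all DHT peaks. In 13 of the 52 pairs the DHT peak overlapped another control peak (25%, 95% interval 15.2 to 38.2%). Over all DHT peaks 16.9% overlapped a control peak, which lies within that interval.

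The 5 members nearest to a DHT peak illustrate these pairs. Beside chr18:65362489-65362762 (5.30-fold, −log10 q 4.86) was a DHT peak of 1020 bp with a fold of 3.80 and a −log10 q of 1.86. The member chr5:127098317-127098602 (4.34-fold) was 56 bases from a DHT peak of 4.08-fold, and chr5:112131502-112131837 (4.72-fold) was 166 bases from one of 3.91-fold. In chr18:7992809-7993197 (5.53-fold) the gap was 263 bases, to a DHT peak of 3.76-fold. The member chr1:197067806-197068078 (5.43-fold, −log10 q 5.09) lay 376 bases from a DHT peak of 4.89-fold, which was the only one of these 5 DHT peaks with a −log10 q over 3. It was within 0.651 kb of the last called position on chromosome 1. The fold of a member and of its neighbour are not set against each other here, because the limit on strength applied to the member alone.

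Nearness to a DHT peak differed with the strength of the member. Among members with a −log10 q of 3 to 4, 35 of 912 had a DHT peak within 10 kb (3.84%, 95% interval 2.77 to 5.29%), and at 4 to 5 it was 7 of 176 (3.98%, 95% interval 1.94 to 7.98%). At 5 or more it was 10 of 60 (16.7%, 95% interval 9.31 to 28.03%). The interval of the strongest members lies above that of the members under 4, but the limit of 5 was set after values had been seen and no test was run. With the limit at 4 the share was 7.20% (17 of 236, 95% interval 4.55 to 11.2%). In narrow control-only peaks below the limit on q, the share was 3.08% at a −log10 q under 2 and 3.52% at 2 to 3. Other control peaks lay within 10 kb of 13.2% of members under 4 (95% interval 11.1 to 15.5%). At 5 or more this was 9 of 60 (15%, 95% interval 8.10 to 26.1%). The last interval is too wide to tell whether this share differed with strength.

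These 10 members were spread over 10 chromosomes. In addition to chr1:197067806-197068078, chr10:125026810-125027104 and chr18:7992809-7993197 given above, they were chr2:129583309-129583957, chr8:129605902-129606218, chr9:73869994-73870335, chr11:100136525-100136858, chr13:91259171-91259479, chr16:82246062-82246356 and chr17:68859292-68859555. Their −log10 q ranged from 5.03 to 6.53. The DHT peaks beside them had −log10 q values from 1.59 to 3.18 and folds from 3.45 to 4.89, and 9 of the 10 were below the limit of 3, as were 74.2% of all DHT peaks. Those beside chr10:125026810-125027104 and chr16:82246062-82246356 overlapped another control peak, as did 16.9% of all DHT peaks. For chr13:91259171-91259479 (5.53-fold, −log10 q 5.64) the DHT peak was 1.42 kb away, with a fold of 4.79 and a −log10 q of 2.96. For chr2:129583309-129583957 (5.30-fold, −log10 q 5.21) it was 1.03 kb away, with 3.73-fold enrichment.

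At the other extreme, some members were far from any DHT peak. The member chr3:90684103-90684596 (4.36-fold) had its nearest one at 4073 kb, chr5:34582015-34582290 (4.70-fold) at 3788 kb and chr10:129945837-129946159 (4.43-fold) at 3469 kb. The last was the outermost peak on its chromosome in either list. In all, 1091 members (95.03%) had a DHT peak within 1000 kb.

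The spacing of members was described without a comparison to the spacing that their number alone would give. The median distance to the nearest other member was 616 kb. Another member lay within 10 kb of 10 members (0.871%), in 5 pairs. These were on chromosome 3 (chr3:45144492-45144806 and chr3:45149961-45150221), chromosome 9 (chr9:92355847-92356127 and chr9:92365409-92365669), chromosome 13 (chr13:75715970-75716236 and chr13:75719907-75720210, and chr13:115644681-115644978 and chr13:115648151-115648531) and chromosome 16 (chr16:71499956-71500236 and chr16:71504864-71505126). The gaps ran from 3172 to 9281 bases. The peaks of a pair could differ in strength, with −log10 q values of 5.83 and 3.21 on chromosome 16 and of 3.71 and 5.27 in the first pair on chromosome 13. The closest of these pairs to a DHT peak was the second on chromosome 13, at 24.1 kb.

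The control list is much longer than the set of members, and other control peaks were closer. The nearest other control peak lay at a median of 48.3 kb from a member, compared with 47.2 kb for the narrow control-only peaks below the limit on q. Within 10 kb it was found for 149 members (13.0%, 95% interval 11.2 to 15.05%), beside 11.1% of all control-only peaks. Of those 149 neighbours, 10 were members and 32 were wider than 1000 bp. Below the limit on q were 134 (89.9%), near the 91.03% of all control peaks on these chromosomes. No DHT peak overlapped 136 of them (91.3%, 95% interval 85.6 to 94.8%), beside 95.8% of all control peaks. The 10 members among them lack a DHT peak by the rule, and the difference was not tested. The closest other control peak to any member was at 1.07 kb.

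**Figure D4:**
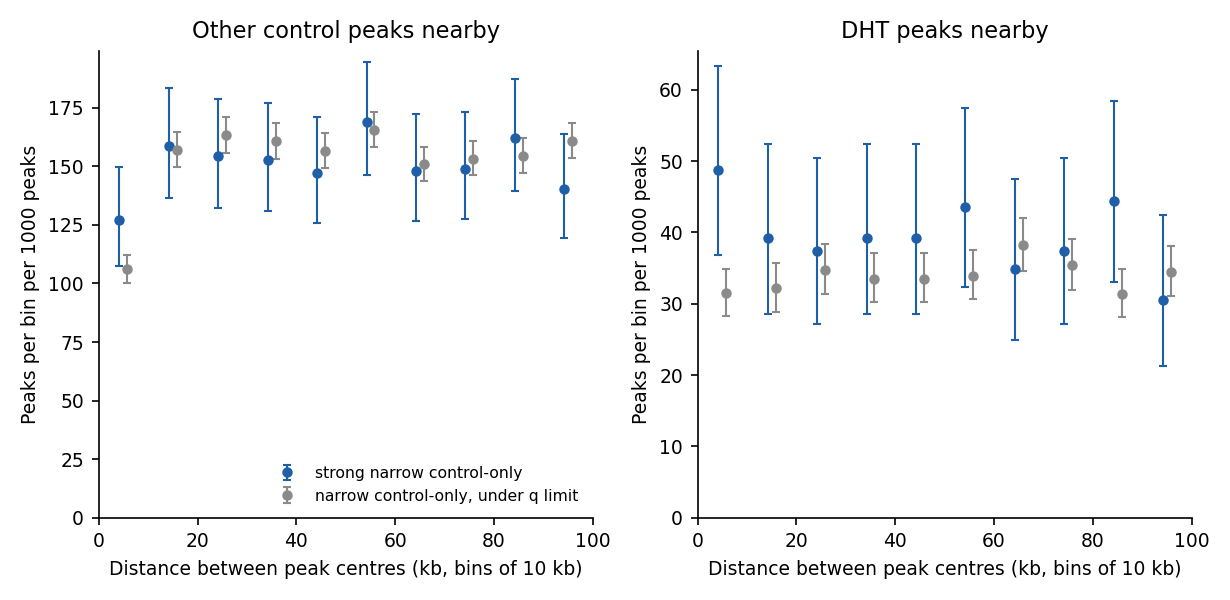
Mean number of other control peaks (left) and DHT peaks (right) per bin of 10 kb, per 1000 peaks, against the distance between peak centres in kb, with error bars for exact 95% Poisson intervals (counting error only). Around the strong narrow control-only peaks (blue) the first bin holds 48.8 DHT peaks per 1000, beside 31.4 around the narrow control-only peaks below the limit on q (grey), and later bins overlap.

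By centre to centre distance, the first 10 kb around members held 48.8 DHT peaks per 1000 members (95% Poisson interval 36.8 to 63.3) and 31.4 around the narrow control-only peaks below the limit on q (28.2 to 34.9). From 10 to 20 kb the values were 39.2 and 32.2 with overlapping intervals. For control peaks around members, the first 10 kb held 127 per 1000 (107 to 150) and the next 10 kb 159 (136 to 183), with overlapping intervals. Around the narrow control-only peaks below the limit on q the values were 106 and 157. No control peak on these chromosomes lay closer than 1.05 kb to another, so the shortest distances could hold none in either set. The centre distance and the distance between edges do not give the same counts, and by edges the intervals of the 2 sets overlapped, as given above.

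Over larger distances the members were counted in windows, again without a comparison to what their number alone would give. They fell into 889 windows of 1 Mb, of which 672 held 1 member, 181 held 2, 30 held 3 and 6 held 4. The 3 densest windows in genome order among those with 4 members were on chromosome 1 at 22 to 23 Mb (8 control peaks in all) and at 39 to 40 Mb (8 control peaks) and on chromosome 8 at 129 to 130 Mb (14 control peaks). The last held chr8:129026106-129026366 (4.58-fold), chr8:129392335-129392717 (5.14-fold), chr8:129605902-129606218 (5.34-fold) and chr8:129758223-129758571 (4.63-fold). These had DHT peaks at 13.4, 87.4, 4.19 and 9.66 kb. In the first window on chromosome 1 the 4 members had folds of 4.39 to 4.71, and the nearest DHT peak was at 73.3 kb.

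Members were found on each of the 19 chromosomes, from 27 on chromosome 19 to 103 on chromosome 1. As a share of the control peaks of a chromosome they ranged from 5.65% on chromosome 15 (37 of 655, 95% interval 4.13 to 7.69%) to 9.25% on chromosome 8 (77 of 832, 95% interval 7.47 to 11.4%). The share over all 19 was 7.55%, and it lay within the interval of every chromosome. The share of strong narrow control peaks without a DHT peak ranged from 74.6% on chromosome 11 (44 of 59, 95% interval 62.2 to 83.9%) to 98.04% on chromosome 7 (50 of 51, 95% interval 89.7 to 99.7%). These intervals do not overlap, but the chromosomes are the extremes of 19 and no test was run. Several of the peaks with a DHT peak on chromosome 11 lay close together near its start, and the interval counts each as separate. DHT-only peaks were fewer than members on each chromosome, from 47.3% of the members on chromosome 4 to 92.6% on chromosome 19.

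**Figure D5:**
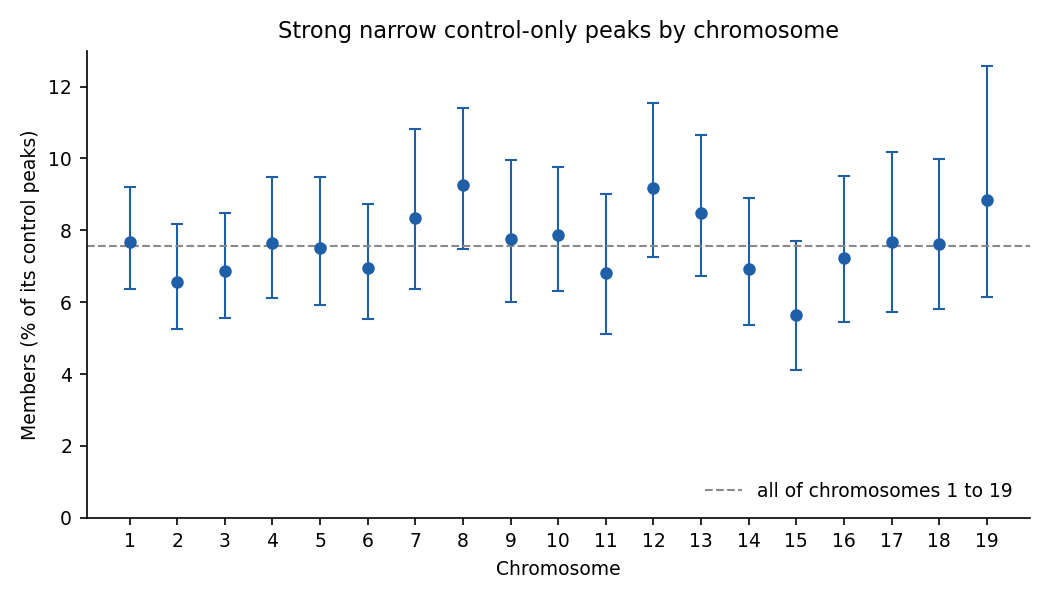
Strong narrow control-only peaks as a share of the control peaks of each chromosome (%), with error bars for 95% Wilson intervals and a dashed line at the share over chromosomes 1 to 19. The line at 7.55% crosses all 19 intervals, whose centres run from 5.65% on chromosome 15 to 9.25% on chromosome 8.

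Along the chromosomes the members were spread more evenly than the strong narrow peaks with a DHT counterpart. Mouse chromosomes have the centromere at one end, where the sequence is rich in satellite repeats, and numbering starts at that end. The first 1 Mb of called positions on each chromosome held 9 of the 1148 members (0.784%, 95% interval 0.413 to 1.48%), close to 0.987% of all control peaks on these chromosomes. It held 13 of the 149 peaks with a DHT counterpart (8.72%, 95% interval 5.17 to 14.4%). Several of these 13 lay close together near the start of chromosome 11, and the interval counts each as a separate peak. With the called length cut into 5 equal parts, members had shares of 18.99, 17.2, 21.6, 21.5 and 20.7% in order. All control peaks on these chromosomes had 20.3, 20.6, 20.7, 20.7 and 17.7%. The shares of all control peaks lay outside the 95% interval of the members in part 2 (15.1 to 19.4%) and part 5 (18.5 to 23.2%). The peaks with a DHT counterpart had 28.9% (95% interval 22.2 to 36.6%) in the part nearest the centromere, which includes those in the first 1 Mb. No test of these differences was run.

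A pair of members differed from all others in fold. Both were near the start of chromosome 11, at chr11:3051078-3051352 (1.85-fold, −log10 q 3.02) and chr11:3095432-3095917 (1.78-fold, −log10 q 3.05). The lowest fold of any other member was 3.77. Their nearest DHT peaks were 2.16 and 0.987 kb away and likewise of low fold, 2.28 and 2.08. Of the 10 strong narrow control peaks with a fold under 3, the other 8 overlapped a DHT peak.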

How the data were processed

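Per the labels and the methods of the study, the authors mapped the reads to mm9 with Bowtie2 2.3.4, kept uniquely mapped reads and called broad peaks with MACS2 2.1.1, giving 1 list per group with a lowest −log10 q of 1.30 in control and 1.35 after DHT. PCR duplicates were removed per the methods, while the peak names carry the setting keep_auto. How the 3 replicates were combined, and whether an input was used, is not given in the sources used here. Each deposited peak has a score (10 times −log10 q, rounded down), a fold enrichment (a ratio to local background), a −log10 p-value and a −log10 q-value, averaged over the peak.

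Overlaps and distances were computed in Python 3.11.15 with numpy 2.4.6, pandas 2.3.3 and scipy 1.17.1, and plots were drawn with matplotlib 3.10.9. The overlap code was tested on simulated intervals. Distances are the bases between peak edges, and coordinates are mm9, counted from 1. Intervals are 95% Wilson intervals for shares, order statistic intervals for medians and Poisson intervals for counts, and they cover counting error only. As members were chosen by q, width and overlap, and no value per sample is held, no test was run.

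The members, and the comparisons made with them, were chosen with earlier results of these data known. Named regions are the 10 strongest members, the extremes of fold, width and distance to a DHT peak, those next to each limit, and the 3 densest windows. The 2 low-fold members, the 5 pairs and the 10 strongest members near a DHT peak were singled out after their values were seen. The authors' lists of gene symbols carry no positions and were not used, nor was an mm9 sequence or annotation.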

Additional observations from a re-analysis of the deposited data

How the results depend on the processing

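No paired analysis was possible because each group has 1 pooled peak list, and for the same reason no replicate could be left out. Under 9 other settings, 80 values were recomputed for 9 results, and 59 stayed within 1.5 times the main count or ratio, or within its counting interval. The number of members was 5100 at a −log10 q of at least 2, 236 at 4 and 1878 at a −log10 p of at least 6, and from 1089 to 1217 under the other 6. The share of strong narrow control peaks without a DHT peak was 93.6, 76.9 and 90.3% under those 3 limits, 92.2 and 86.6% at widths up to 500 and 2000 bp, 84.5% when no DHT peak was allowed within 10 kb, 93.4% when strong DHT peaks alone counted, and 87.9 and 88.6% under the other settings. DHT-only peaks were 37.6% of control-only peaks at a −log10 q of at least 2, and 59.1 to 84.7% under the other 8 settings. The limit on strength thus moved these values most. The share of members with another control peak within 10 kb ran from 11.7 to 13.2% over the 9 settings, and the median distance to a DHT peak from 178 to 215 kb. The share with a DHT peak within 10 kb ran from 3.75 to 7.20% over 7 settings and has no value where the rule itself removes such peaks. It was 9.50% when strong DHT peaks alone counted, since that setting admits 63 peaks that overlap a weak DHT peak. Depth per sample is unknown, so what it adds to the number of peaks in each list was not tested.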

Other observations

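Chromosome X was outside the rule, and the same limits gave 69 control-only peaks there, out of 75 strong narrow control peaks (92.0%, 95% Wilson interval 83.6 to 96.3%) and 1141 control peaks in all (6.05%, 95% interval 4.81 to 7.58%). Their median fold was 4.47 and their median width 295 bp, and the nearest DHT peak lay at a median of 245 kb. The mirrored rule gave 24 DHT-only peaks on X.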
